A study of Mus musculus with 3 samples.

Results

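The 40 genes described here are a proliferation module: genes whose mRNAs are made or held mainly in cells that copy their DNA or divide. They were taken by symbol from a fixed list, and all 40 were found among the 55357 features of the count tables. The tables hold single-cell RNA profiles of mouse liver in 3 libraries named CON, HFD and CCL4, each made from the pooled liver cells of 2 male wild-type C57BL/6 mice that were 8 weeks old at the start. CON mice were untreated. HFD mice ate a diet with 60% of its calories as fat for 4 months, a model of metabolic steatohepatitis, and CCL4 mice had 3 months of chow and then 4 weeks of 2 intraperitoneal injections a week, each of 0.1 mL of 10% carbon tetrachloride, a hepatotoxin used to cause fibrosis. In every library hepatocytes and non-parenchymal cells had been combined in equal numbers before loading, so the shares of cell types were set partly by hand.

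There was 1 library per condition, so no difference between conditions could be tested, and condition, pool of mice, dissociation and library cannot be told apart. No duration was recorded for CON mice, so their age at harvest is not known and may differ from that of HFD and CCL4 mice. Both comparisons also share the CON library. The intervals given are 95% intervals that cover counting error only. They treat unique molecular identifiers (UMIs, 1 per captured RNA molecule) as independent, and are too narrow where a few cells hold most of a gene's UMIs. A level is given in CPM, the UMIs of a gene or list per 1000000 UMIs of the same cells. The assay reads the 3′ end of each RNA and its values are not per length, so levels are compared between libraries and cell classes, not between genes.

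In the mammalian cell cycle, cyclin E (Ccne1, Ccne2) and its kinase partner open S phase. The minichromosome maintenance helicase (Mcm2, Mcm3, Mcm5, Mcm6, Mcm7), its partner Gins2, the sliding clamp Pcna and the nucleotide enzymes Rrm1, Rrm2, Tyms and Tk1 serve DNA synthesis. Cyclins A and B (Ccna2, Ccnb1, Ccnb2) with Cdk1, the kinases Plk1, Aurka and Aurkb, spindle motors, kinetochore proteins and the anaphase-promoting complex factors Cdc20 and Ube2c then drive mitosis. Adult hepatocytes are mostly quiescent and re-enter the cycle after injury, whereas bone marrow-type progenitors divide steadily. Of the 40 members, 13 were grouped as G1/S or replication genes and 26 as mitotic genes, and Stmn1, a microtubule-destabilizing protein, was kept apart.

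Mitotic genes are known to carry a cell cycle homology region (CHR) and CCAAT boxes near their start, and S phase genes E2F sites, so these letters were read in the 250 bases before each RefSeq start (build GRCm38.p6, both strands). A promoter was found for 31 of the 40 members. The CHR core TTTGAA was present in 9 of the 31 (29.0%) against 18.3% of 27025 genes with a promoter of the same length, and CCAAT in 26 (83.9%) against 37.5%. An E2F word (TTTCCCGC, TTTGGCGC, TTTCGCGC or TTTGCCGC) stood in 4 (12.9%) against 2.16%. Among the mitotic members 8 of 20 (40%) held TTTGAA and 18 (90%) CCAAT. Of the replication members 1 of 11 (9.09%) held TTTGAA and 3 (27.3%) an E2F word. The 5 promoters printed below belong to 4 mitotic or chromosome genes whose levels the results turn on and to 1 replication gene for contrast. Capitals mark a CHR, CCAAT or E2F word on either strand, and some words overlap. These letters describe the window and are not evidence of binding. Each runs 5′ to 3′ on the gene's strand: Cdk1 at chr10:69352913-69353162 (minus), Cdc20 at chr4:118437344-118437593 (minus), Ube2c at chr2:164769679-164769928 (plus), Top2a at chr11:99024190-99024439 (minus) and Mcm6 at chr1:128359706-128359955 (minus).
Cdk1: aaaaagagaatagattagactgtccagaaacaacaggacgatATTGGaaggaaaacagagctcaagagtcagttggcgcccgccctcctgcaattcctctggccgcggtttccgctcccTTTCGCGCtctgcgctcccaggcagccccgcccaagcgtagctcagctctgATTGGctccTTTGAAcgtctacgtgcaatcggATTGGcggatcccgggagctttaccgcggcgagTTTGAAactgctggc
Cdc20: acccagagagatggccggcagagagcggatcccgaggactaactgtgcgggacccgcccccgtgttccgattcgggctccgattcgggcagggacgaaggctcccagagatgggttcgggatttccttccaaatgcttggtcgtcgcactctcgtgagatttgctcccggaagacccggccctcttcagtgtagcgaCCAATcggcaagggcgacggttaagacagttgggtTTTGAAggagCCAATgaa
Ube2c: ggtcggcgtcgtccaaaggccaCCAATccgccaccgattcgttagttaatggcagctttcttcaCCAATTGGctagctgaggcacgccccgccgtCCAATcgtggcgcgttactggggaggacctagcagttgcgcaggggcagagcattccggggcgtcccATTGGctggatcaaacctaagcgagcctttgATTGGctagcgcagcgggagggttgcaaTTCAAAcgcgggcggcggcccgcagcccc
Top2a: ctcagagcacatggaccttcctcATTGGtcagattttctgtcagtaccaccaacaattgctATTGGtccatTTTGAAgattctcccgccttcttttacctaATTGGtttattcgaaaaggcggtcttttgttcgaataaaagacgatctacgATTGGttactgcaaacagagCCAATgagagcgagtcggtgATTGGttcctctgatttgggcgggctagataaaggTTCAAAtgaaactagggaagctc
Mcm6: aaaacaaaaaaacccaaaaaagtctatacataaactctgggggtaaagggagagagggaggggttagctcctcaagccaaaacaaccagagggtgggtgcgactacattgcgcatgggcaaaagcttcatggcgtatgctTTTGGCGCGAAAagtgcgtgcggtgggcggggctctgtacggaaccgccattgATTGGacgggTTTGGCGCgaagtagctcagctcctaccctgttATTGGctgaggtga
Cdk1 and Mcm6 showed an E2F word, and the promoters of Cdc20, Ube2c and Top2a joined a CHR core to CCAAT boxes without one.

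The libraries held 11245, 12984 and 12761 cell barcodes in CON, HFD and CCL4, with 49613255, 34985786 and 34061186 UMIs and medians of 2939, 2336 and 2173 UMIs per barcode. After filtering, 36945 cells formed 38 clusters, made without the cell cycle genes, and 37 of these took a name from marker genes, giving 16 cell classes. Pairs of libraries shared 36, 49 and 52 barcodes. A doublet caller marked 2, 1 and 3 cells, which were left out. A caller that finds so few has not worked, so doublets remain. Its scores serve below only for an alternative setting, which is not a test for doublets. Transcripts that mark hepatocytes were counted in the other classes too. Hepatocyte marker RNA in T cell-like cells stood at 32.6% of its level in the hepatocyte-like cells of the same library in CON, 69.0% in HFD and 76.8% in CCL4, and the same order held in natural killer (NK) cell-like, monocyte-like, endothelial-like and cholangiocyte-like cells. Beside list levels of these classes, a value is therefore given with this share of hepatocyte RNA taken off, a calculation added after the data were seen.

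Over all cells, the 40 genes together were highest in CON. They gave 39755 UMIs in CON, 9297 in HFD and 8023 in CCL4, which is 803 CPM (795 to 811), 266 (260 to 271) and 236 (231 to 241). Cells with at least 3 UMIs of the list, called cycling here, were 1416 of 11205 (12.6%) in CON, 436 of 12982 (3.36%) in HFD and 394 of 12758 (3.09%) in CCL4. When each cell was thinned to 1000 UMIs the shares were 4.62%, 1.19% and 1.06%, in the same order. Values over all cells also reflect the mix of cell classes. Myeloid progenitor-like cells, described below, were 289 in CON, 43 in HFD and 11 in CCL4. They held 9609 of the 20703 mitotic UMIs in CON, 466 of 3756 in HFD and 121 of 3330 in CCL4.

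The 3-UMI rule caught many cells with a thin signal. Of the cycling cells, 699 in CON, 247 in HFD and 223 in CCL4 had only 3 or 4 UMIs, and cycling cells were deeper than the rest, with a median of 4953.5 against 2779 UMIs in CON, 3334.5 against 2316 in HFD and 2985.5 against 2156 in CCL4. Mki67, the classical proliferation antigen, or Top2a, the topoisomerase that untangles sister chromatids, was seen in 39.2%, 34.4% and 32.7% of cycling cells. Mature granulocyte-like cells of the cluster led by Retnlg, Ifitm1 and Cxcl2, a type that has left the cycle, give the background of this rule: 6.17% of 470 cells in CON (median 2356.5 UMIs), 0.722% of 277 in HFD (median 2155) and 1.20% of 83 in CCL4 (median 1904). A smaller set with at least 10 UMIs of the list held 513, 131 and 99 cells, with 1, 1 and 0 cells of the mature granulocyte-like cluster among them. Mki67 or Top2a, which are on the list that chose these cells, was seen in 429, 111 and 84. These few cells held 77.4% of all list UMIs in CON, 39.4% in HFD and 32.4% in CCL4, and 86.1%, 56.7% and 55.4% of the mitotic UMIs. Of the cells with at least 10 list UMIs, 250, 28 and 6 were myeloid progenitor-like. The richest cell of each library had 615, 75 and 101 list UMIs.

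**Figure D1:**
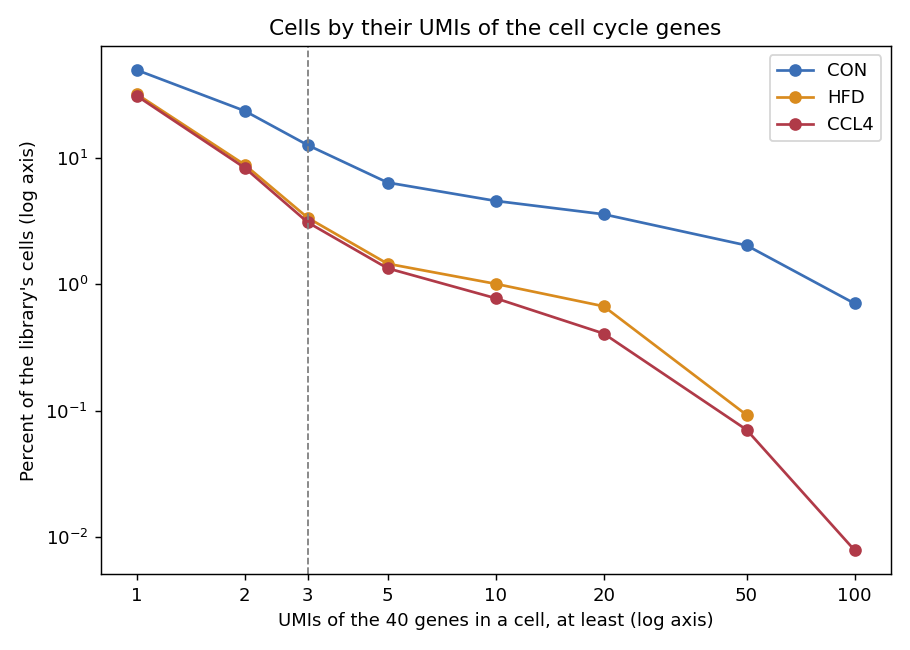
Percent of each library's cells (log axis) with at least the number of UMIs of the 40 genes on the horizontal axis (log), 1 line per library, with a dashed line at the 3-UMI rule. CON lies above HFD and CCL4 throughout, and at 10 UMIs the points stand for 513, 131 and 99 cells.

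Cells resembling myeloid progenitors, led by Elane, Mpo and Prtn3, which encode granule proteins of early granulocyte precursors, had the highest list level of the 16 classes in each library. There were 289 in CON, 43 in HFD and 11 in CCL4, at 6559 CPM (6463 to 6656), 4354 (4078 to 4644) and 4374.5 (3764 to 5056). Cycling cells made up 96.2%, 76.7% and 54.5%, or 74.3%, 58.6% and 49.8% after thinning. Stmn1 stood at 1096, 885 and 789 CPM, Top2a at 508, 296.5 and 311, Mki67 at 357, 118 and 263, Ube2c at 354, 249.5 and 359, and Pcna at 395, 268 and 95.6. Most of the class was thus above the 3-UMI rule in every library, and its number of cells differed more than its level. CON over HFD was 1.51 for the list level as deposited and 1.18 with hepatocyte RNA taken off. Granulocyte-like cells of the next stage, led by the secondary-granule genes Ngp, Camp and Ltf, stood at 2698.5, 1316 and 724 CPM in 127, 58 and 7 cells, and mature ones at 272, 149 and 152 CPM.

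**Figure D2:**
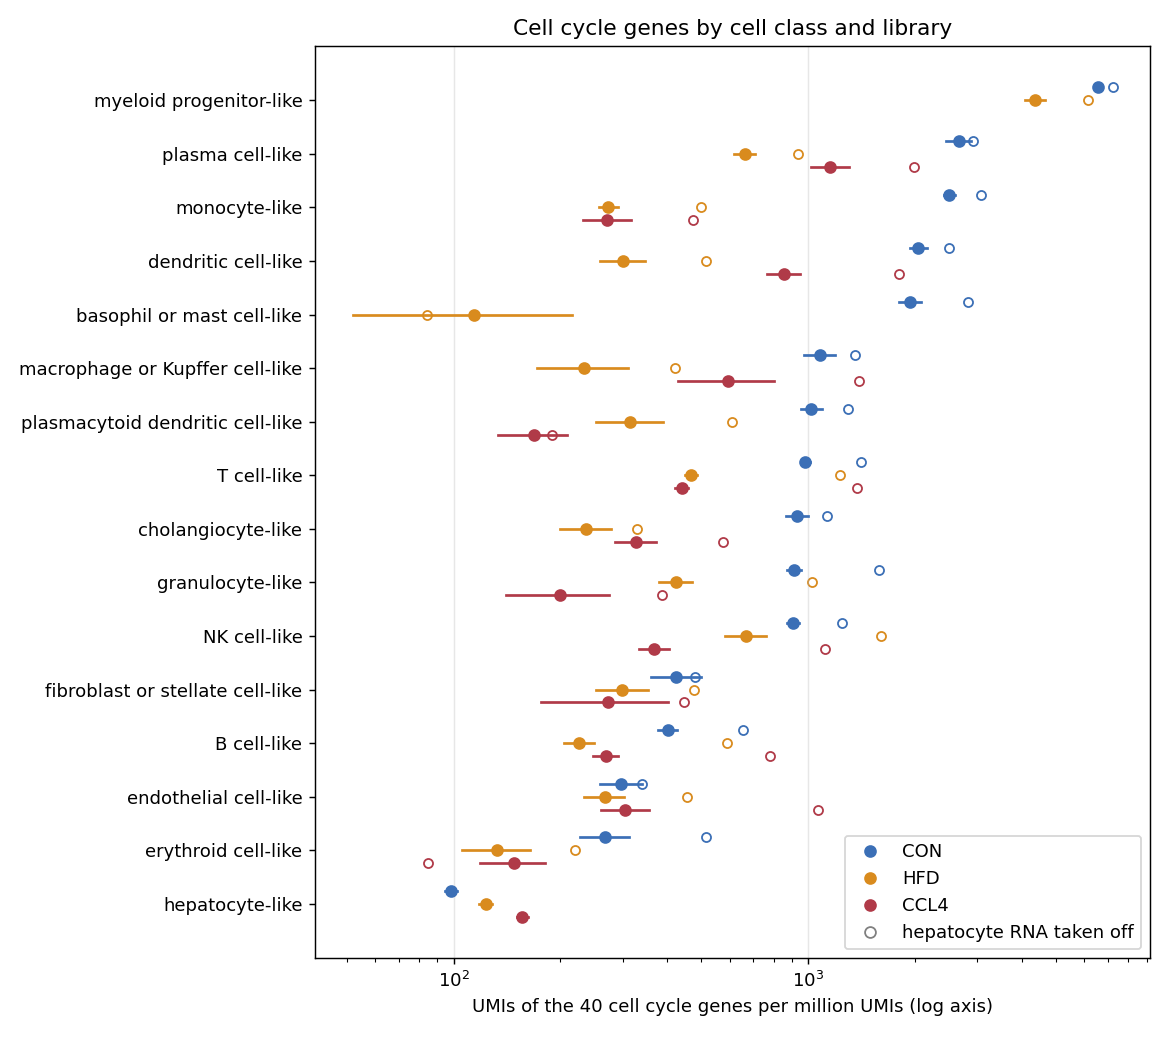
Summed CPM of the 40 genes by cell class and library on a log axis, with lines for 95% counting intervals and open circles for the level with hepatocyte RNA taken off. Points of fewer than 20 cells are left out. Myeloid progenitor-like cells sit at the top with 6559 CPM in CON, and hepatocyte-like cells are lowest in CON with 98.4 CPM.

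Monocyte-like cells (284 in CON, 1427 in HFD, 239 in CCL4) were far higher in CON in the main clustering. The list stood at 2502 CPM (2419 to 2586), 273 (257 to 290) and 271 (231.5 to 315), and cycling cells at 35.2%, 3.85% and 3.35%. Top2a gave 315 UMIs (226 CPM), 29 (7.33) and 7 (11.4), Mki67 194 (139), 27 (6.83) and 0, Ube2c 235 (168.5), 40 (10.1) and 12 (19.5), and Pcna 227 (163), 204 (51.6) and 34 (55.2). All 40 members had a lower CPM in HFD and in CCL4 than in CON. With at least 20 UMIs in the pair as the minimum, 38 of 39 were at least 2-fold lower in HFD and 36 of 36 in CCL4, where 14.5% and 20.4% of all genes tested were, but 23 and 34 of these members reached that minimum through CON alone and so had little room for another call. The 13 members with 20 UMIs in both CON and HFD and the 2 in both CON and CCL4 were all at least 2-fold lower, and the share of all genes under that stricter minimum was not computed. With hepatocyte RNA taken off the counts were 39 of 39, where 9.99% of genes were, and 36 of 36, where 23.2% were. The share taken off was 18.9% in CON, 60.0% in HFD and 63.6% in CCL4, and the same minimum was then applied. How many members reached it through CON alone was not counted, so these counts are not separate evidence. CON over HFD was 6.14 in place of 9.15. The class joins 2 clusters held unequally by the libraries, and within the cluster led by Lyz2, Chil3 and F13a1, with 261, 730 and 224 cells, CON over HFD was 7.34 (6.79 to 7.94) and CON over CCL4 9.503 (8.12 to 11.2). The UMIs came from few cells, since 53 of the 284 CON cells had at least 10 and held 89.5% of the class's list UMIs. Below 10 list UMIs the level was 381 CPM in CON, 205 in HFD and 181 in CCL4.

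The difference within monocyte-like cells changed with the clustering, and why was not tested. With cell cycle genes kept in the clustering, 54 of the 284 CON cells were named progenitor and 229 stayed monocyte-like. CON over HFD and CON over CCL4 were then much lower, with values in the last section. At a finer clustering 233 of the 284 CON cells fell in an unnamed cluster. With libraries clustered on their own all 284 stayed monocyte-like. Leaving out the 8% of cells with the highest doublet scores removed 38 of the 284 CON cells. Of the 284, 223 then fell in a cluster named progenitor and 22 stayed monocyte-like. CON over HFD in the monocyte-like cells was then 1.02 and CON over CCL4 0.813, which turned. Both values rest on few CON cells and have no interval, so no direction is read from them. The scores behind this setting also come from the caller that had not worked. Counted as 1 class, as an alternative added after the data were seen, monocyte-like and progenitor-like cells were 10.8 times higher in CON than in HFD (7.86 to 13.8 over the clusterings tried) and 9.75 times higher than in CCL4 (3.65 to 11.4). The joint ratio also reflects the mix of both classes. Progenitor-like cells were 289 beside 284 monocyte-like cells in CON, 43 beside 1427 in HFD and 11 beside 239 in CCL4. Within progenitor-like cells alone CON over HFD was 1.51.

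Cholangiocyte-like cells, the epithelium of the bile ducts, also had their highest level in CON, where 4 cells held most of the list UMIs. The list stood at 929.5 CPM (863 to 1000) in 115 CON cells, 237 (200 to 278) in 167 HFD cells and 327 (285 to 373) in 213 CCL4 cells. With hepatocyte RNA taken off, CON over HFD went from 3.93 to 3.43 and CON over CCL4 from 2.85 to 1.97. Cdk1 had 32 UMIs in CON, 0 in HFD and 1 in CCL4, Mki67 39, 0 and 1, Cenpf, a kinetochore protein, 34, 0 and 0, Prc1, a bundler of the central spindle, 37, 1 and 2, and Top2a 39, 2 and 3. A count of 0 allows up to 4.83 CPM in HFD and 4.43 in CCL4. Of all 40 members, 36 had a lower CPM than CON in HFD and 35 in CCL4. At least 20 UMIs in the pair, the minimum for a 2-fold call, were reached by 12 and 13 members, 7 of them each time through CON alone, so the 11 and 8 that were at least 2-fold lower are counts fixed in part by that filter (10.4% and 19.4% of all genes were lower). With hepatocyte RNA taken off they were 7 of 10 and 6 of 10, where 8.45% and 11.3% of genes were. These counts use the same minimum, and how many members reached it through CON alone was not counted. In both libraries of a pair, 20 UMIs were reached by 2 members. In HFD both of these, Pcna and Stmn1, were at least 2-fold lower, and in CCL4 neither, with no share of all genes computed for this stricter minimum. The 4 CON cells with 10 or more list UMIs held 65.5% of the list UMIs and 325 of 353 mitotic UMIs, and no HFD or CCL4 cell of the class reached 10. Their immune marker level was 88.8 CPM and none had a UMI of Ptprc, the pan-leukocyte gene. In the cells below 10 UMIs, list CPM was 357 in CON, 237 in HFD and 327 in CCL4, and mitotic CPM 39.8, 19.3 and 41.4.

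Among lymphocytes, T cell-like cells were higher in CON as deposited, and the excess was much smaller with hepatocyte RNA taken off. In 1728, 2143 and 1996 cells the list stood at 982 CPM (954 to 1010), 467 (449 to 486) and 439 (420 to 459), and at 1410, 1232 and 1375 with that RNA taken off. CON over HFD went from 2.10 to 1.15 and CON over CCL4 from 2.24 to 1.02. Both lower values rest on the median marker, and the spread over the markers was not carried through. Mki67 had 217 UMIs (44.7 CPM), 54 (10.5) and 41 (9.39), Bub1, a spindle checkpoint kinase, 25 (5.15), 4 (0.780) and 3 (0.687), and Cenpf 104 (21.4), 21 (4.10) and 36 (8.24). The nucleotide enzyme Tk1 did not follow these, with 34 UMIs (6.997), 65 (12.7) and 20 (4.58).

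At least 2-fold lower than in CON were 24 of 40 members in HFD and 20 of 39 in CCL4, where 22.5% and 33% of all T cell-like genes tested were, and no member was at least 2-fold higher, where 11.1% and 9.83% of genes were. Of these members 8 in HFD and 11 in CCL4 reached the minimum through CON alone, and among those with 20 UMIs in both libraries 16 of 27 and 15 of 24 were lower. The share of all genes with 20 UMIs in both libraries that were lower was not computed. With hepatocyte RNA taken off, 6 of 39 were lower in HFD, where 14.1% of genes were, and 9 of 38 in CCL4, where 34.7% were. The minimum in the pair was the same. The 9 included Ccnb1, Cdc20 and Tk1, which had not been lower as deposited. At least 2-fold higher was then only the cytokinesis motor Kif23, 1 of 39 in HFD and 1 of 38 in CCL4, where 6.51% and 5.74% of genes were. As deposited Kif23 had 38 UMIs in CON, 39 in HFD and 30 in CCL4. Its ratios to CON were 0.973 and 0.8785, so that call rests on the share taken off. The T cell-like clusters were largely split by library, so that CON and HFD cells were mostly in different clusters. Cells with at least 10 list UMIs were 2.95% in CON, 2.10% in HFD and 1.75% in CCL4. Of the 35 in CCL4, 18 were among 82 cells of the cluster led by Cd3g, Trac and Cd3e, whose list level was 2541 CPM, against 338 in the 1909 cells led by Trbc2 and Gm8369.

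NK cell-like cells stood at 906, 667 and 368 CPM and B cell-like cells at 402, 225.5 and 268. With hepatocyte RNA taken off, CON over HFD went from 1.36 to 0.774 and CON over CCL4 from 2.46 to 1.12 in NK cell-like cells, and from 1.78 to 1.11 and from 1.5 to 0.837 in B cell-like cells. Endothelial-like cells did not differ beyond counting error as deposited, at 297, 266.5 and 305 CPM, with CON over HFD 1.11 (0.923 to 1.34) and CON over CCL4 0.975 (0.793 to 1.20). With hepatocyte RNA taken off they were 340, 455 and 1065, so their order rests on that share. Plasma cell-like cells, 26, 270 and 70 in number, stood at 2656.5, 662 and 1155 CPM, but 9 of the 26 CON cells held 95.3% of the list UMIs there, and below 10 list UMIs the levels were 195, 145.5 and 266. With hepatocyte RNA taken off, CON over CCL4 in this class went from 2.30 to 1.47. Dendritic cell-like cells stood at 2046, 301 and 855 CPM, but CON over CCL4 went from 2.39 to 0.580 at a finer clustering.

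In hepatocyte-like cells the order of the libraries was opposite to that over all cells. The list was lowest in 4970 CON cells at 98.4 CPM (94.7 to 102), and stood at 123 (118 to 128) in 6543 HFD cells and 156 (151 to 162) in 7066 CCL4 cells. HFD over CON was 1.25 (1.18 to 1.32) and CCL4 over CON 1.59 (1.51 to 1.67). The hepatocyte-like cells fell into 8 clusters, of which 7 came to at least 90% from 1 library and the other to 82.5%, so the libraries were compared over different clusters and not within shared ones. By the 3-UMI rule 3.38%, 0.856% and 1.75% were cycling, and 0.278%, 0.237% and 0.384% after thinning. Median depth was 3799.5, 2293 and 2290 UMIs per cell. The share lay below that of mature granulocyte-like cells in CON (6.17%). In HFD and CCL4 that background was 0.722% of 277 cells and 1.20% of 83. These are too few cells to place the hepatocyte-like share above or below it. Since the unthinned order of the libraries goes against that of the CPM, no order is read from the shares.

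The CCL4 difference lay in mitotic more than in replication genes. Mitotic CPM was 19.0 in CON, 24.8 in HFD and 53.5 in CCL4, so that HFD over CON was 1.31 (1.15 to 1.49) and CCL4 over CON 2.82 (2.54 to 3.13). Replication and G1/S genes stood at 70.3, 81.5 and 80.2 CPM, with ratios of 1.16 (1.08 to 1.24) and 1.14 (1.07 to 1.22). By role, the 5 checkpoint and anaphase genes summed to 3.96, 6.85 and 16.2 CPM, the 8 mitotic cyclins, kinases and their activator to 4.14, 6.46 and 14.4, the 7 spindle and cytokinesis genes other than Stmn1 to 3.41, 3.29 and 9.45, the 4 centromere genes to 5.16, 6.63 and 10.2, and the 11 DNA synthesis genes to 65.5, 76.9 and 78.1. The 2 G1/S cyclins were lowest in CCL4, at 4.79, 4.59 and 2.04.

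Of the mitotic cyclins and kinases, Ccnb2 had 9 UMIs (0.327 CPM) in CON, 16 (0.906) in HFD and 77 (3.73) in CCL4, and CCL4 over CON was 11.4 (5.72 to 25.9). Ccnb1 had 17 (0.617), 11 (0.623) and 74 (3.59), a ratio of 5.81 (3.40 to 10.5). Cdk1, their kinase, had 39 (1.42), 54 (3.06) and 59 (2.86), and was thus 2.16 times CON in HFD and 2.02 times in CCL4. Of these 3 libraries Ccnb1 was thus high in CCL4 alone, whereas Cdk1 was above CON in both. Cdc20, which activates the anaphase-promoting complex, had 10 UMIs (0.363 CPM), 38 (2.15) and 82 (3.98), ratios of 5.93 (2.90 to 13.3) for HFD and 10.9 (5.66 to 23.7) for CCL4. Ube2c, the ubiquitin-conjugating enzyme of the same complex, had 57 (2.07), 36 (2.04) and 139 (6.74), and Birc5, a member of the chromosomal passenger complex, 28 (1.02), 39 (2.21) and 105 (5.09).

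By the sums above, spindle and centromere genes were higher in CCL4 than in CON, but not every member was at least 2-fold higher. Cenpf had 9 UMIs (0.327), 7 (0.396) and 57 (2.76), with a CCL4 over CON ratio of 8.46 (4.16 to 19.4), and Hmmr, a spindle assembly factor, 4 (0.145), 4 (0.227) and 25 (1.21), a ratio of 8.35 (2.88 to 33.0). Prc1 had 14 (0.508), 14 (0.793) and 52 (2.52), and Kif20a, a cytokinesis motor, 14 (0.508), 12 (0.680) and 41 (1.99). Tpx2, another spindle gene, had 9 (0.327), 5 (0.283) and 30 (1.45), a CCL4 over CON ratio of 4.45 (2.06 to 10.7). Not 2-fold apart from CON in CCL4 were the motor Kif11, with 17 (0.617) in CON and 15 (0.727) in CCL4, the spindle gene Nusap1, with 23 (0.835) and 28 (1.36), and the centromeric histone Cenpa, with 128 (4.65) and 137 (6.64). Too low to be tested were Kif23, a cytokinesis motor (13 UMIs in CON, 4 in CCL4), the kinetochore motor Cenpe (4 and 15) and Ska1 (1 and 1). Stmn1 had 251 (9.11), 298 (16.9) and 464 (22.5) and was 2.47 times CON in CCL4 (2.11 to 2.89). The common proliferation markers were not 2-fold apart from CON in CCL4. Mki67 had 26 (0.944), 8 (0.453) and 21 (1.02) and Top2a 38 (1.38), 20 (1.13) and 45 (2.18).

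Among S phase genes, Rrm2, the regulated subunit of ribonucleotide reductase, had 65 UMIs (2.36 CPM), 98 (5.55) and 151 (7.32), and was 2.35 times CON (1.70 to 3.27) in HFD and 3.102 times (2.31 to 4.21) in CCL4. The thymidine kinase Tk1 was highest in HFD, with 114 (4.14), 190 (10.8) and 150 (7.27), 2.60 times CON (2.05 to 3.31), and Gins2 likewise, with 23 (0.835), 36 (2.04) and 26 (1.26). Pcna stayed near level at 776 (28.2), 468 (26.5) and 662 (32.1). Ccne1, which triggers S phase entry, was lowest in CCL4, with 118 (4.28), 60 (3.40) and 25 (1.21), a ratio to CON of 0.283 (0.176 to 0.438).

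Over all 40 members, CPM was above CON in 24 in HFD and in 33 in CCL4. With 20 UMIs in the pair as the minimum, 8 of the 28 members tested were at least 2-fold higher in HFD than in CON, where 9.38% of all hepatocyte-like genes tested were, and 14 of 33 in CCL4, where 11.2% were. At least 2-fold lower was 1 member each time (Ccna2 in HFD, Ccne1 in CCL4), where 7.13% and 8.81% of genes were. Of the members tested in CCL4, 9 reached the minimum through CCL4 alone, Ccnb1, Ccnb2, Cdc20, Cenpf and Hmmr among them. All 9 are among the 14 called higher, so that count was fixed in part by this filter. In HFD 2 reached it through HFD alone, Ccne2 and Cdc20, both called higher, and 4 through CON alone. With 20 UMIs in both libraries of a pair, 5 of 17 were at least 2-fold higher in HFD (Cdk1, Birc5, Rrm2, Tk1, Gins2) and 5 of 21 in CCL4 (Cdk1, Birc5, Ube2c, Rrm2, Stmn1). The share of all genes under this stricter minimum was not computed, so these 2 counts have no background beside them. By the minimum of 20 UMIs in the pair, 12 members in HFD and 7 in CCL4 were too low to be tested, Plk1, Bub1 and Foxm1 among them.

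Within the class, a handful of cells, nearly all in clusters with more mitochondrial RNA, held much of the mitotic signal of CCL4. Cells with at least 10 list UMIs, 15 in CON, 9 in HFD and 19 in CCL4, held 33.5%, 29.9% and 55.7% of the class's mitotic UMIs. In the clusters whose median mitochondrial share was 2% or more, added as an alternative after the data were seen (1537, 1181 and 3037 cells), list CPM was 97.9, 143 and 182.5, and mitotic CPM 20.2, 36.1 and 70.3. CCL4 over CON was 3.49 (3.04 to 4.01) for mitotic and 1.26 for replication genes, and HFD over CON 1.79 (1.47 to 2.18) for mitotic genes. The clusters of lower median held most of the class, 3433 cells in CON, 5362 in HFD and 4029 in CCL4. Their median mitochondrial shares were 0.334%, 0.457% and 0.6225%. The ratios of the whole class thus join both kinds of cluster in proportions that differ by library. In the clusters of lower median CCL4 over CON was 1.73 (1.45 to 2.06) for mitotic and 0.976 (0.880 to 1.08) for replication genes. HFD over CON was 1.16 (0.976 to 1.39) for mitotic genes there. In the clusters of higher share, at least 2-fold higher were 18 of 31 members in CCL4 and 6 of 19 in HFD, against 10.2% and 9.47% of all genes there, under the same minimum in the pair and so with the same limit.

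**Figure D3:**
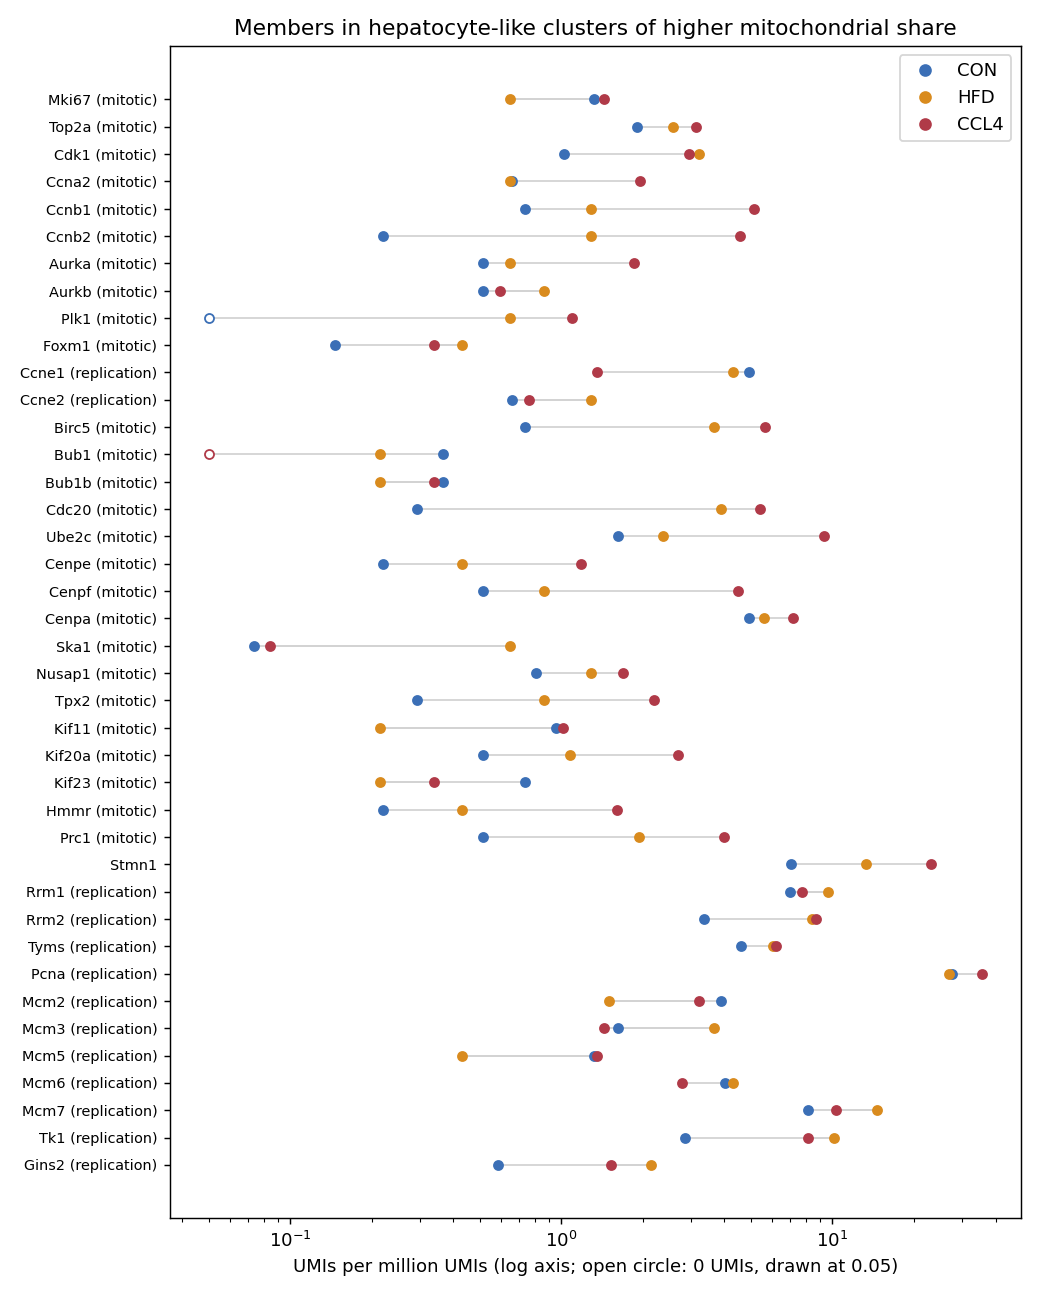
CPM of each of the 40 genes in the hepatocyte-like clusters of higher mitochondrial share, 1 point per library on a log axis, with open circles for 0 UMIs drawn at 0.05. Ccnb2 (0.220 CPM in CON, 4.57 in CCL4), Cdc20 (0.293 and 5.41) and Cenpf (0.513 and 4.48) lie far to the right in CCL4, and Ccne1 (4.91 and 1.35) lies to the left.

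In the clusters of higher mitochondrial share 18 CCL4 cells with at least 10 list UMIs held 608 of 831 mitotic UMIs (73.2%). As a description of cells chosen by these same genes, they had a median of 33.5 list UMIs from 16.5 distinct members, of which 76.3% were mitotic, and 14 of the 18 carried Mki67 or Top2a. Their immune marker level was 49.5 CPM, against 87.0 in the cells with under 3, only 1 had a Ptprc UMI, and their hepatocyte marker level was 86580 CPM. The 5 such HFD cells held 58.3% of the mitotic UMIs, had immune markers at 59.2 CPM and no Ptprc. The 10 such CON cells differed from both: they held 35.6% of the mitotic UMIs, their immune marker level was 1657 CPM against 323 in the cells with under 3, and 5 of the 10 had Ptprc. The part of immune RNA in the CON cells' list UMIs was not tested.

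Below 10 list UMIs the libraries were closer in these clusters. Mitotic CPM was 13.1 in CON, 15.2 in HFD and 19.1 in CCL4, with CCL4 over CON 1.46 (1.19 to 1.79) and HFD over CON 1.16 (0.866 to 1.54), and 6 of 18 members were at least 2-fold higher in CCL4, against 10.1% of genes. Replication genes kept ratios of 1.28 in CCL4 and 1.23 in HFD there. Over all hepatocyte-like cells below 10 list UMIs, mitotic CPM was 12.7 in CON, 17.4 in HFD and 23.9 in CCL4. When every hepatocyte-like cell with a Ptprc UMI was left out, the list ratio was 1.59 in CCL4 and 1.29 in HFD. At least 2-fold higher were 14 of 32 members in CCL4 and 8 of 28 in HFD, where 11.6% and 9.6% of all genes were. At least 2-fold lower were 1 in CCL4 (Ccne1) and 2 in HFD (Mki67 and Ccna2), where 8.39% and 6.70% were. These counts have the same limit from the minimum in the pair.

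**Figure D4:**
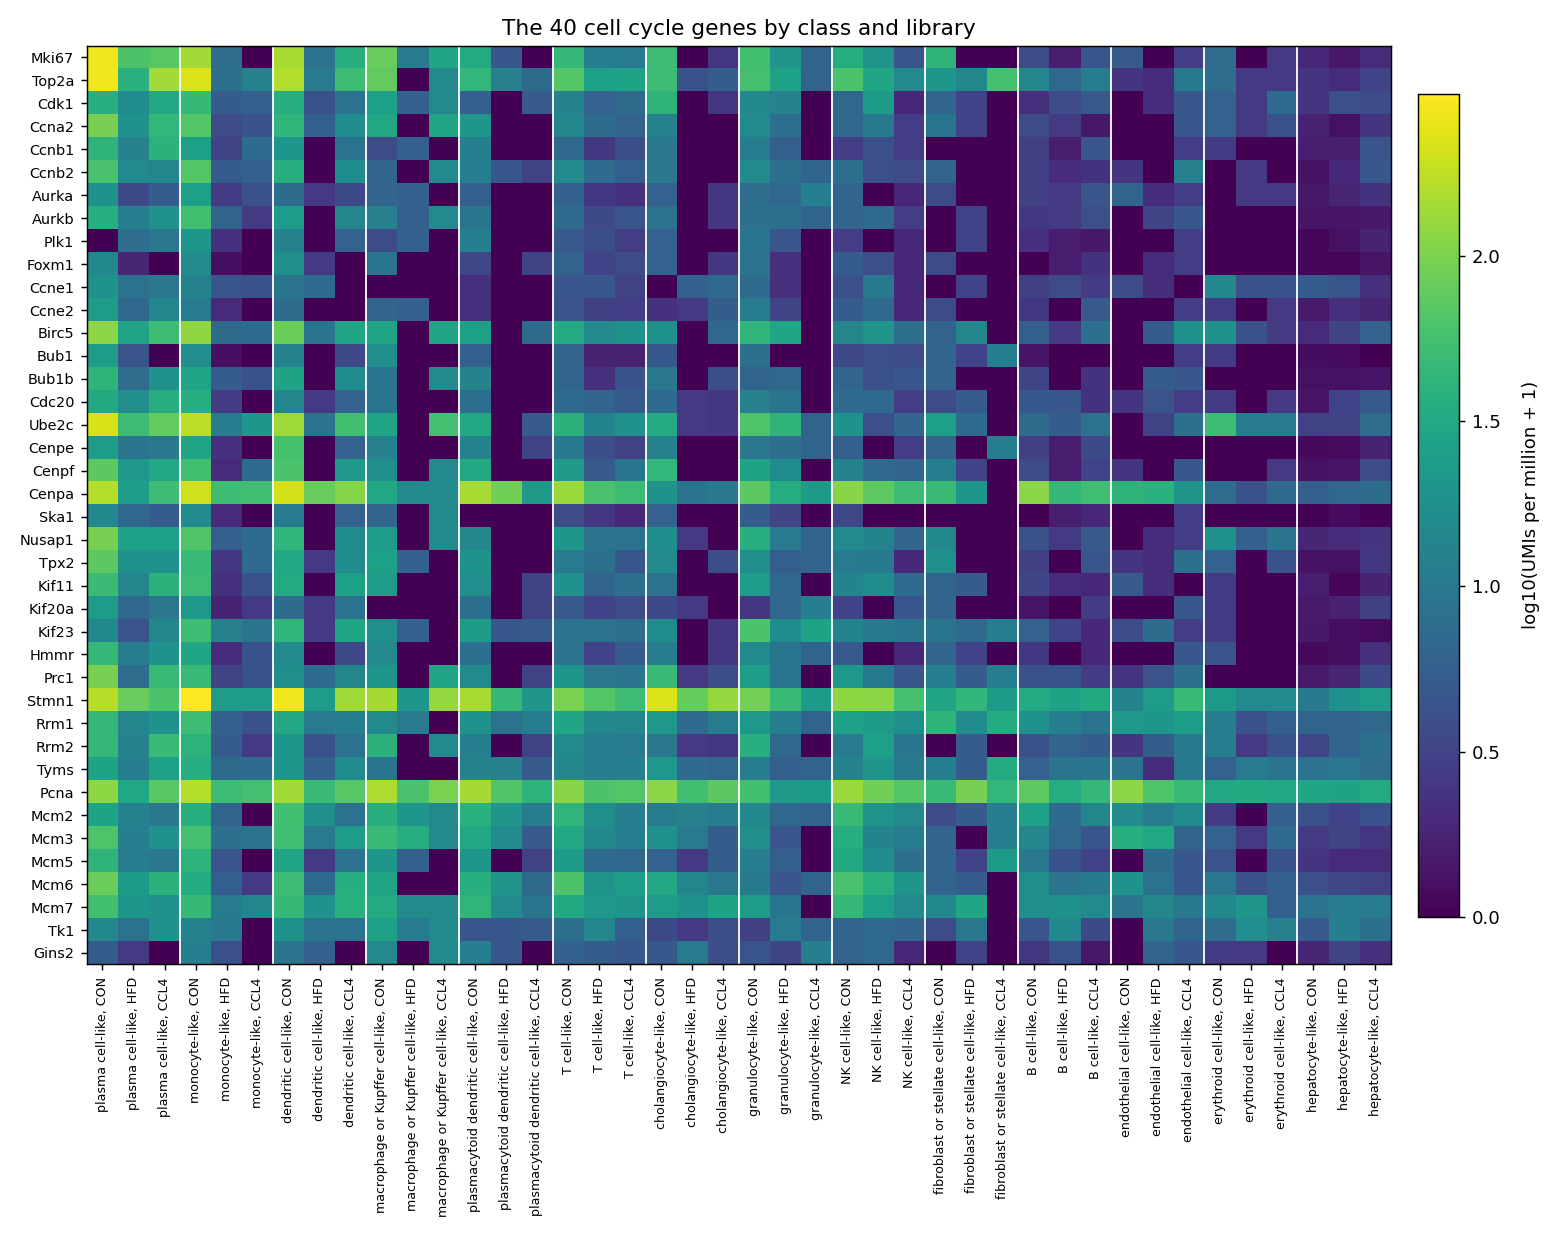
Heat map of each of the 40 genes (rows) in the cell classes with at least 20 cells in every library (columns, 1 per library), coloured by log10 of CPM + 1. The CON columns of monocyte-like, dendritic cell-like and plasma cell-like cells are bright in most mitotic genes, whereas hepatocyte-like columns are dark in them in all 3 libraries.

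Cell cycle genes outside the 40 were also read, from a list of 108. In hepatocyte-like cells 20 of 79 tested were at least 2-fold higher in CCL4, where 11.2% of all genes were, and 4 lower, where 8.81% were. In HFD 12 of 74 were higher, where 9.38% were, and 3 lower, where 7.13% were. All counts for this list use the minimum of 20 UMIs in the pair, which a gene can reach through the higher library alone. How many of the 108 did so was not counted, nor how many had 20 UMIs in both libraries. The counts may thus be fixed in part by that filter, and are not separate evidence for the pattern of the 40. Of the mitosis and kinetochore genes in that list, 12 of 19 tested were higher in CCL4, among them the kinetochore gene Spc25, the checkpoint gene Mad2l1, the passenger gene Cdca8 and the cytokinesis genes Ect2, Anln and Racgap1, whereas Cenpm was lower. Of the replication licensing and fork genes 3 of 24 were higher in CCL4, a share near that of all genes, and 6 of 24 in HFD, Mcm10, Gmnn and Chaf1a in both. The G1 cyclin Ccnd2 and the repressor E2f8 were lower in CCL4. As deposited, 67 of 84 were lower in HFD and 62 of 75 in CCL4 in monocyte-like cells, where 14.5% and 20.4% of all genes were. In cholangiocyte-like cells 9 of 34 and 14 of 33 were lower, where 10.4% and 19.4% were, and in T cell-like cells 38 of 92 and 50 of 92, where 22.5% and 33% were. These counts have the limit given for the list of 108, and were not repeated with hepatocyte RNA taken off.

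Genes outside the 40 that were higher in cycling than in other hepatocyte-like cells in every library were ranked by their lowest ratio over the libraries. The chromatin protein Hmgb2, which is on the list of 108, had ratios of 3.71 in CON, 10.8 in HFD and 9.75 in CCL4. Hjurp, the chaperone that loads the centromeric histone Cenpa, and Resf1 had lowest ratios over the libraries of 1.57 and 1.67. Cycling hepatocyte-like cells are deeper than the rest, and these ratios describe cells chosen by their list UMIs.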

How the data were processed

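Cell barcodes were counted by the authors with Cell Ranger (version 7.2.0 in the deposited matrices) from 10x 3′ libraries, and the deposited values are raw UMI counts per gene and cell. The genome named differs between sources (mm10 and GRCm39), so no coordinate was taken from the tables. Groups came from the sample titles. Cells with at least 500 UMIs, 200 genes and at most 30% mitochondrial UMIs were clustered with scanpy 1.11.5 (2000 variable genes without cell cycle genes, 30 components, 15 neighbours, resolution 1.0), and clusters were named from marker lists. The naming rule was adjusted after clusters and list counts were seen, since at first it left hepatocytes unnamed. The 40 members and all gene lists were chosen with earlier results of these data known.

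CPM was computed from UMI sums per class, with exact Poisson, Clopper-Pearson and conditional ratio intervals (95%, scipy 1.17.1) and Python 3.11.15. A gene was counted as different when it had at least 20 UMIs in a pair and a ratio of at least 2 with 0.5 UMI added. For a count of 0, 3 counts set the limit. Hepatocyte RNA was taken off at the median over 10 markers of class level over hepatocyte-like level. Genes were named as all 40 members, the up to 5 highest per class, the up to 5 largest ratios per comparison, and up to 10 outside genes by lowest ratio in cycling over other cells. Further members of a role or complex were named after their values were seen. Fold calls, ratio intervals, thinning and the removal of hepatocyte RNA were tried on simulated counts, but clustering, naming and doublet handling were not. The simulated mixture gave all 10 markers the same share. In T cell-like cells of CCL4 the share ran from 40.8% to 93.0% over the markers, so that trial cannot show how well the removal works there.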

Additional observations from a re-analysis of the deposited data

Results flagged for a closer look

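In several classes the list level differed between libraries in the opposite direction to hepatocyte-like cells, where HFD over CON was 1.25 and CCL4 over CON 1.59. HFD over CON was 0.109 in monocyte-like, 0.147 in dendritic cell-like, 0.255 in cholangiocyte-like and 0.476 in T cell-like cells. CCL4 over CON was 0.108, 0.418, 0.351 and 0.447 in the same classes. Several depend on the processing. CON over CCL4 in monocyte-like cells turned to 0.813 without the 8% highest doublet scores, where only 22 of 284 CON cells kept that name. In dendritic cell-like cells it turned to 0.580 at resolution 2.0. In T cell-like cells CON over HFD was 1.15 and CON over CCL4 1.02 with hepatocyte RNA taken off. In cholangiocyte-like cells they were 3.43 and 1.97 with that RNA taken off. There 4 CON cells held 65.5% of the list UMIs, and below 10 list UMIs the level was 357 CPM in CON, 237 in HFD and 327 in CCL4. These differences between classes were not tested, since each condition had 1 library.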

How the results depend on the processing

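Of 103 alternative values of the main results, 55 stayed close (within the counting interval, or for counts of genes within 1.5 times), 47 moved and 1 turned. Of 153 others, 88 stayed, 64 moved and 1 turned. Ratios in this tally cover hepatocyte-, monocyte-, T cell-, dendritic cell- and cholangiocyte-like cells, and monocyte-like with progenitor-like cells. Classes outside it also turned with hepatocyte RNA taken off. CON over HFD went from 1.36 to 0.774 in NK cell-like cells. CON over CCL4 went from 1.5 to 0.837 in B cell-like and from 1.81 to 0.978 in macrophage- or Kupffer cell-like cells. Shares of cycling cells in CON, HFD and CCL4 were 23.6%, 8.86% and 8.37% at 2 UMIs, 6.40%, 1.46% and 1.34% at 5, 11.6%, 2.98% and 2.45% without Stmn1, and 6.70%, 1.67% and 1.60% without replication genes. Thinning to 1500 UMIs gave 6.23%, 1.68% and 1.52%, and leaving out the 8% highest doublet scores gave 11.8% in CON. That cut may remove cycling cells more often than others. In T cell-like cells with under 3 list UMIs the median score was 0.0383 in CON, 0.0757 in HFD and 0.0813 in CCL4. In those with 10 or more it was 0.107, 0.107 and 0.135. In CON it rose from 0.0603 to 0.0980 in hepatocyte-like cells and fell from 0.0634 to 0.0525 in cholangiocyte-like cells. In hepatocyte-like cells HFD over CON was 1.48 without replication genes and 1.46 in clusters of higher mitochondrial share. CCL4 over CON was 1.497 without Stmn1, 2.70 without replication genes, 1.33 with cell cycle genes kept in the clustering, 1.77 with libraries clustered on their own and 1.86 in clusters of higher mitochondrial share. The 1.77 covers only part of the class. When clustered on its own, CCL4 had 2633 cells named hepatocyte-like, against 7066 in the main clustering, and 5082 in unnamed clusters. In monocyte-like cells CON over HFD and CON over CCL4 were 12.3 and 11.0 without replication genes, 2.09 and 2.42 with cell cycle genes kept, 3.62 and 3.05 at resolution 2.0, 10.7 and 3.67 with libraries clustered on their own, 6.14 and 6.49 with hepatocyte RNA taken off, and 1.02 and 0.813 without the 8% highest doublet scores, where the latter turned. Under that last setting only 22 of the 284 CON cells kept the name, and no interval was computed. Scaling outside mitochondrial and the 20 most abundant genes gave 8.38 for CON over HFD. In T cell-like cells the 2 ratios were 1.96 and 1.97 under that scaling, 2.44 and 2.59 with cell cycle genes kept, and 1.15 and 1.02 with hepatocyte RNA taken off. CON over HFD was 2.23 without replication genes, and CON over CCL4 2.36 with libraries clustered on their own. Members at least 2-fold higher in HFD hepatocyte-like cells were 5 at a minimum of 50 UMIs. In T cell-like cells 33 were lower in CCL4 at a fold of 1.5, and 6 in HFD and 9 in CCL4 with hepatocyte RNA taken off. In dendritic cell-like cells CON over CCL4 turned to 0.580 at resolution 2.0. The causes of these changes were not tested. No paired analysis was possible because each condition had 1 library, and none could be left out. Depth limits the members with few UMIs in hepatocyte-like cells.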
